A study of Mus musculus with 19 samples.

Results

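The Platr genes and Lncenc1 are genes of mouse embryonic stem cells named as long non-coding RNAs (the annotation lists Platr17 and Platr25 as protein-coding). They were chosen by name: every gene of the GENCODE M21 annotation whose symbol is Platr followed by a number, plus Lncenc1. The annotation held 31 such genes, and 30 of them had transcripts among the 54119 genes measured. Platr2 was not analysed here. RNA was sequenced from 19 mouse cell libraries in 6 groups. XX libraries came from wild-type cells of the LF2 line (3 mESC, 3 EpiLC), XY libraries from wild-type cells of the E14 line (3 and 3), and Tet3-/- libraries from XX LF2 cells without the gene Tet3, which encodes an enzyme that oxidises 5-methylcytosine (4 mESC, mutants #1 to #4, and 3 EpiLC, mutants #1, #3 and #4). All mESC (mouse embryonic stem cells) were held in the naive state with LIF and inhibitors of the kinases GSK3 and MEK, and EpiLC (epiblast-like cells, the next, formative state of pluripotency) were taken after 5 days with FGF5 and Activin A and no LIF. The comparisons ask what loss of TET3 does to the exit from the naive state. Each sex was represented by a single line, so sex and cell line cannot be told apart. The labels do not say that replicates came from separate cultures or that mutants are separate clones, so the p-values measure the spread between these libraries.

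Platr stands for pluripotency-associated transcript. The family was named for RNAs that are abundant in mouse embryonic stem cells and are lost when the cells differentiate, so a fall from mESC to EpiLC is the direction the name already carries. Lncenc1 supports the expression of glycolysis genes in naive cells. Platr4 has been linked to the differentiation of mesoderm and endoderm. The naive state is held by transcription factors such as Klf4, Esrrb and Nanog and gives way to a formative state marked by Fgf5, Otx2 and Pou3f1.

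RefSeq promoter windows (GRCm38.p6, 250 bases before to 50 after the start site) were matched for 14 members, in 16 windows. The windows of 5 members are shown, since the results below turn on these genes. Platr22 rose, as did Platr21 in XX and XY, and Lncenc1 and Platr7 fell by different amounts in XX and XY. Platr10 was called higher in XY and lower in Tet3-/- on the TPM values, and its XY rise was not called once these were rescaled, as given below. Capitals mark matches to 7 motifs searched on both strands: the octamer ATGCAAAT, an ESRRB-type AAGGTCA, a SOX-type ATTGTT, a KLF-type GGGTGTGG, an OTX-type GGATTA, a ZIC-type CAGCAGG and the TATA box TATAAA. No match overlapped another in the windows shown.
Platr22, chr1:136695961-136696260, plus strand: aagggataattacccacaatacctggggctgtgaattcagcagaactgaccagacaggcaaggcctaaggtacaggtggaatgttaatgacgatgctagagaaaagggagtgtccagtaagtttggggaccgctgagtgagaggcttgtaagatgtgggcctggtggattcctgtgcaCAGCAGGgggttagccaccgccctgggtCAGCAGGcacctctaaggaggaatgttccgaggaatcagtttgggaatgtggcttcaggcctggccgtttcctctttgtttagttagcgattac
Platr21, chrX:139357689-139357988, minus strand: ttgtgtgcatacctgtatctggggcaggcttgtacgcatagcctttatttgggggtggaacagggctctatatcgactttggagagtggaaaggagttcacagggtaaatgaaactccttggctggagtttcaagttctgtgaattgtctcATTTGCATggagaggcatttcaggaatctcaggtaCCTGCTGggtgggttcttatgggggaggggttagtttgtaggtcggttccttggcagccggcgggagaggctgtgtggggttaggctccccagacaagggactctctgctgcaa
Platr10, chr3:75655682-75655981, minus strand: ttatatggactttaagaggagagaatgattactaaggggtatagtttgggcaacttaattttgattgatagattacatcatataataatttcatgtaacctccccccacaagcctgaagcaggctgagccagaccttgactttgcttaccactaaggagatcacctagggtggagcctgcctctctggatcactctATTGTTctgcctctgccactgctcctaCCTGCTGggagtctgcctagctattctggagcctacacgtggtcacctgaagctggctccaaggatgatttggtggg
Lncenc1, chr13:97434720-97435019, plus strand: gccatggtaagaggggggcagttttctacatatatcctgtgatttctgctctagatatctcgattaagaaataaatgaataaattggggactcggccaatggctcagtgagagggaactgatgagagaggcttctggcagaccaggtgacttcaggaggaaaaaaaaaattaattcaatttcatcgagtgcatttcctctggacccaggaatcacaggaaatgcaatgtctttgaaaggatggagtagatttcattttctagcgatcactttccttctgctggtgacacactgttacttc
Platr7, chr10:84553289-84553588, minus strand: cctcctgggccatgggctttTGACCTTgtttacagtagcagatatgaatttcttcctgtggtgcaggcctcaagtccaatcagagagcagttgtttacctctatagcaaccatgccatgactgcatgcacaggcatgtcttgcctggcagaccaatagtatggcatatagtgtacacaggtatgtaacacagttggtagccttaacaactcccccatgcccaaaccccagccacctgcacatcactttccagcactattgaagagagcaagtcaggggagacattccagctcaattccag
The ZIC-type letters occurred in the windows of Platr22 (2 matches), Platr21 and Platr10, and in 10.5% of all 32851 promoter windows. The octamer occurred in Platr21, and in 1.74% of all windows. The ESRRB-type letters occurred in Platr7 (4.72% of all windows) and the SOX-type letters in Platr10, Platr14 and Platr8 (10.7% of all windows). The Lncenc1 window held none of the 7, nor did a second RefSeq window of Platr21. The start sites of these 5 windows equal those of GENCODE. A match is a description of the letters and not a bound site.

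The values are TPM, length-corrected shares of a fixed total per library, which keep no depth, so the depth behind each value is unknown. Tests were made with limma on log2(TPM + 1), and a gene was called at a Benjamini-Hochberg adjusted p under 0.05 over all 14972 genes tested, those with at least 1 TPM in at least 3 libraries. On this scale the fold of a low gene is understated. The TPM scale moved the median of all genes by 0.14, 0.54 and -0.13 log2 units in the transitions of XX, XY and Tet3-/- cells and by -0.58 between XX and XY EpiLC (0.19 and -0.07 between Tet3-/- and XX in mESC and EpiLC, -0.19 between XX and XY mESC). Values rescaled by the median of ratios (scaled values), which hold that median within about 0.05 of 0, are therefore given beside the results. Tet3 itself had 0.761 ± 0.269 TPM in XX mESC (SD, 3 libraries) and 0.661 ± 0.174 in Tet3-/- mESC (4 libraries), and 1.65 ± 0.386 in XX EpiLC and 1.04 ± 0.363 in Tet3-/- EpiLC (3 libraries each). It was not lower at the threshold (log2 fold change -0.08 in mESC and -0.39 in EpiLC, limma adjusted p 0.885 and 0.525). A deletion can leave transcript, so this level does not check the labels. Of the EpiLC markers, Fgf5 lay between 2.21 and 2.78 TPM in XX EpiLC and between 50.8 and 60.0 TPM in XY EpiLC. Fgf5, Pou3f1 and Dnmt3b were higher in XX EpiLC than in XX mESC. Otx2 was lower there (10.4 to 11.5 TPM against 16.3 to 22.2 in XX mESC), and Lef1 overlapped (0.199 to 0.309 against 0.0586 to 0.354). In XY each of these markers was higher in every EpiLC library than in any mESC library. In Tet3-/- EpiLC mutant #3 stood apart from mutants #1 and #4. Its 5 mesendoderm markers summed to 130 TPM (T, also called brachyury, at 94.3) against 3.07 and 3.27, and its 6 trophoblast markers to 381 TPM, of which Krt8 was 354, against 144 and 103. Its 14 naive genes summed to 102 TPM against 36.0 and 39.4, its formative genes to 263 against 72.4 and 74.5, its neural markers to 79.4 against 26.3 in each, and its primitive endoderm markers to 16.0 against 4.96 and 2.95. Values without it are given where it changed the call of a member named below. The lines differed in these markers too. In XY EpiLC libraries the mesendoderm markers summed to 22.2 to 33.3 TPM, against 2.98 to 3.23 in XX EpiLC. The trophoblast markers summed to 46.0 to 51.0 TPM in XY EpiLC, against 145 to 172 in XX EpiLC. Most of each sum was Krt8 (40.3 to 44.1 TPM in XY and 138 to 166 in XX). Gata3 and Tfap2c were higher in XX too, at no more than 2.17 TPM. Eomes was higher in XY (3.92 to 5.10 TPM against 1.94 to 2.43). The part of these markers in the results was not tested.

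The 30 genes covered a wide range of levels. Platr14 had the highest level of the 30 in 16 libraries, with 52.9, 85.8 and 71.3 TPM in XX mESC, 92.6, 151 and 139 in XY mESC and 81.3, 82.2, 85.1 and 88.8 in Tet3-/- mESC. In EpiLC it had 58.5, 64.9 and 67.4 TPM in XX, 64.1, 76.8 and 80.4 in XY, and 65.3, 41.4 and 50.1 in Tet3-/-. Platr10 led in the other 3 libraries, those of XY EpiLC. By group mean Platr14 ranked between 14 and 26 among 9769 annotated lncRNA-type genes, and Platr10 between 24 and 36. All 30 genes together summed to between 201 and 604 TPM in mESC libraries and between 112 and 296 TPM in EpiLC libraries. The ranges of the states thus overlapped on TPM, and on scaled values they did not (273 to 577 in mESC, 107 to 168 in EpiLC).

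Under 1 TPM in every library were 8 of the 30 genes: Platr1, Platr6, Platr8, Platr19, Platr23, Platr29, Platr30 and Platr31. The highest of them, Platr30 and Platr1, reached 0.665 and 0.654 TPM in single EpiLC libraries. Platr9, which lies over the gene Cga on the opposite strand, passed 1 TPM in 1 library (1.05, XY mESC 3). These 9 genes were not tested. At least 1 TPM in every library was reached by 9 genes: Platr3, Platr10, Platr12, Platr14, Platr15, Platr16, Platr25, Platr27 and Lncenc1. The 21 genes tested include 4 that passed the filter on their mESC values alone (Platr5, Platr7, Platr26 and Platr28). Platr22 reached 1 TPM in every EpiLC library but in only 1 mESC library (1.62, XY mESC 3), so it passed through its EpiLC values. For genes that passed through 1 state, the filter itself favours a difference between the states. Counts over the 21 are therefore a description.

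**Figure D1:**
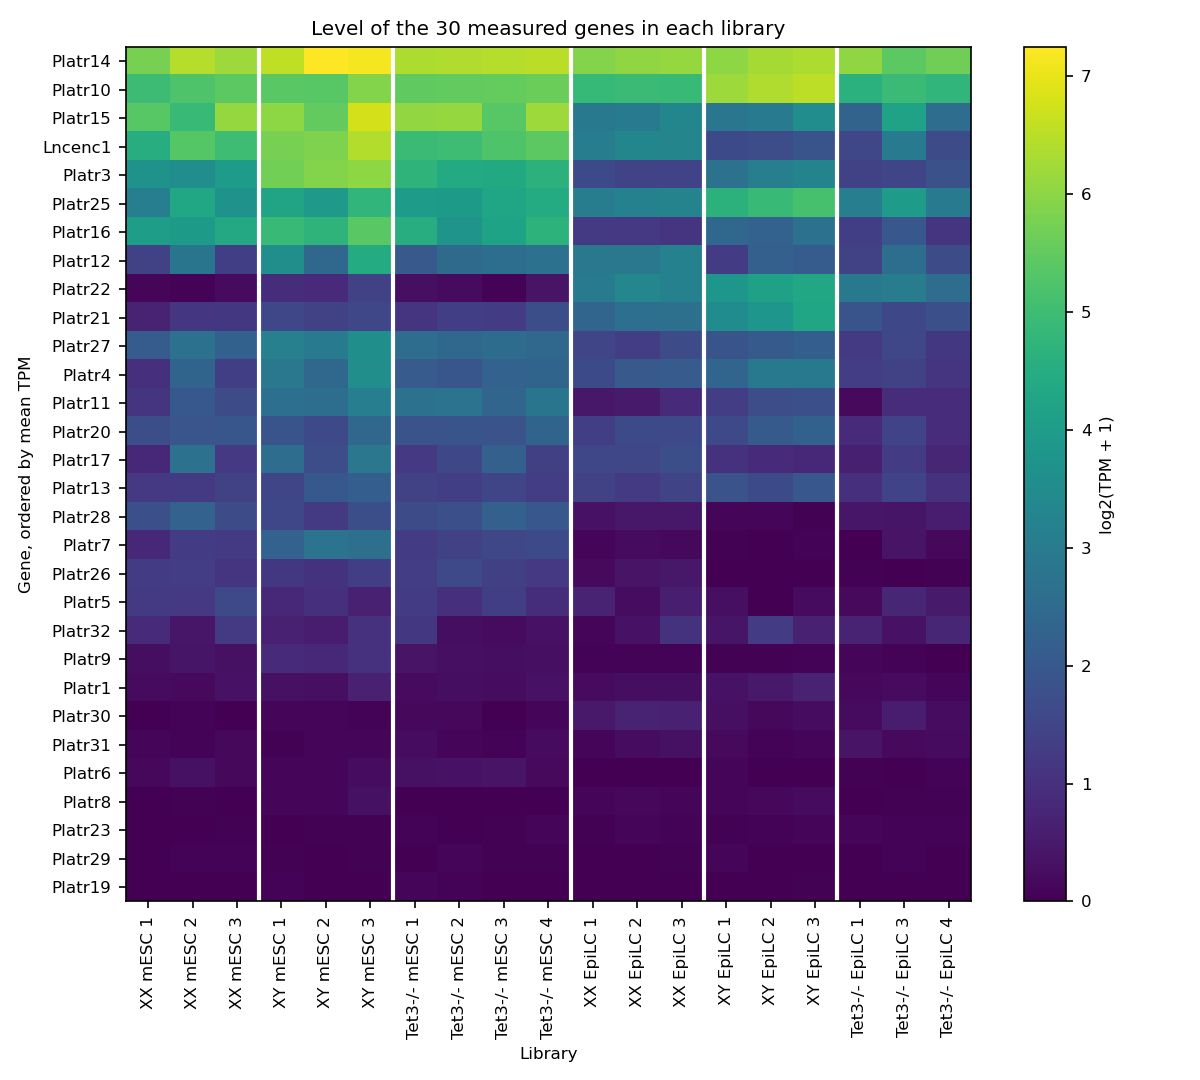
Level of each of the 30 genes (rows, ordered by mean TPM) in each of the 19 libraries (columns, white lines between the groups), as log2(TPM + 1). Platr14 and Platr10 are high throughout, Platr22 is high in EpiLC, and Lncenc1, Platr15, Platr3 and Platr16 are high in mESC.

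Across the transition from mESC to EpiLC 10 of the 21 genes fell in all 3 genotypes: Lncenc1, Platr3, Platr5, Platr7, Platr11, Platr15, Platr16, Platr26, Platr27 and Platr28. Of all tested genes 5.93% fell in all 3, and 4 of these 10 passed the filter on their mESC values alone. Platr22 alone of the 21 rose in all 3 (10.9% of all genes), and on scaled values Platr21 did so too. The filter was passed by Platr22 through its EpiLC values, so its rise was favoured by the filter. In RNA from whole cultures, fewer cells of a type and less RNA per cell cannot be told apart. In XX 10 genes fell and 2 rose, where 12.2% and 19.2% of all tested genes did so. In XY 13 fell and 3 rose, where 9.36% and 41.1% of all genes did so. In Tet3-/- 15 fell and 1 rose, where 21.5% and 13.6% of all genes did so. Over the 21 genes the median log2 fold changes were -0.55, -1.19 and -0.88 (XX, XY and Tet3-/-), beside 0.14, 0.54 and -0.13 for all genes and 0.11, 0.37 and -0.16 for 858 tested lncRNA-type genes. On scaled values 13 fell and 3 rose in XX (27.0% and 23.0% of all genes), 16 fell and 2 rose in XY (26.4% and 24.5%), and 14 fell and 2 rose in Tet3-/- (27.9% and 23.7%). The libraries of the states did not overlap for 12 lower and 3 higher genes in XX (17.1% and 29.2% of all genes), 13 and 3 in XY (12.1% and 44.9%) and 14 and 1 in Tet3-/- (21.5% and 14.9%). All 10 genes that fell in every genotype on TPM did so on scaled values too, where Platr20 joined them, for 11 lower and 2 higher in all 3 (14.9% and 13.6% of all genes).

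Lncenc1 (13:97434970-97497007, plus strand) fell in every genotype and furthest in XY. In XX it went from 21.7, 39.2 and 31.0 TPM in mESC to 7.25, 9.10 and 8.89 in EpiLC. In XY it went from 53.3, 56.9 and 84.6 to 2.08, 2.25 and 2.66. In Tet3-/- it went from 29.8, 31.2, 37.0 and 42.2 to 1.94, 6.78 and 2.21, with 6.78 in mutant #3. No EpiLC library reached any mESC library of its genotype, and XX EpiLC kept the highest EpiLC levels. The log2 fold changes were -1.72 ± 0.31 (SE, limma adjusted p 0.000289) in XX, -4.28 ± 0.31 (limma adjusted p 3.22e-09) in XY and -3.09 ± 0.29 (limma adjusted p 1.09e-07) in Tet3-/-, where it was -3.54 without mutant #3. Its mean rank among lncRNA-type genes was 35 in XX mESC and 82 in XX EpiLC, and 26 and 344 in XY. Most of its signal was assigned to 1 of 3 transcripts, the one of 2764 bases, which held between 77.6% and 86.2% of the gene's TPM by group mean.

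Platr15 (2:150704536-150706876, minus strand, 3 exons) and Platr3 (2:135648907-135652063, plus strand, 4 exons) fell in all 3 genotypes. Platr15 went from 40.6, 28.5 and 67.8 TPM to 6.59, 6.74 and 9.07 in XX, from 63.5, 44.0 and 109 to 6.24, 6.75 and 10.7 in XY, and from 65.7, 67.9, 40.2 and 72.0 to 3.97, 17.1 and 5.00 in Tet3-/-, with the highest in mutant #3. Its libraries spread widely within mESC, and the states still did not overlap. The log2 fold changes were -2.39, -2.97 and -2.90, with SE of 0.43, 0.43 and 0.40 (limma adjusted p 0.00028, 1.65e-05 and 1.32e-05), and without mutant #3 in EpiLC the Tet3-/- value was -3.48. Platr3 went from 12.1, 10.7 and 14.9 TPM to 2.09, 1.81 and 1.77 in XX, from 51.5, 58.6 and 63.4 to 5.48, 7.64 and 8.65 in XY, and from 25.0, 20.5, 20.1 and 24.3 to 1.67, 1.88 and 2.46 in Tet3-/-. XY libraries were above those of the other genotypes in both states, and every EpiLC library lay below every mESC library. The log2 fold changes of Platr3 were -2.22, -2.85 and -2.97 (limma adjusted p 7.97e-08, 1.85e-09 and 5.97e-10).

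Platr16 (4:145410245-145449756, plus strand) fell from 15.8, 14.3 and 19.8 TPM to 1.36, 1.28 and 1.19 in XX, from 29.2, 25.4 and 41.2 to 4.41, 3.85 and 5.48 in XY, and from 22.0, 12.3, 17.5 and 24.5 to 1.56, 2.88 and 1.15 in Tet3-/-. The highest EpiLC library (5.48) lay below the lowest mESC library (12.3). Its log2 fold changes were -2.94, -2.54 and -2.81. Platr16 shares 43.6% of its exon bases with Gm13230, a pseudogene on the same strand, so the split of reads between them is uncertain.

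The other genes that fell in every genotype were lower in level. Platr7 (10:84547417-84553338, minus strand, 4 exons) went from 0.765, 1.39 and 1.35 TPM to 0.0919, 0.168 and 0.121 in XX, from 3.80, 5.80 and 5.36 to 0.0353, 0 and 0.0490 in XY, and from 1.45, 1.67, 1.89 and 2.07 to 0.0121, 0.296 and 0.115 in Tet3-/-. By group mean XY cells thus started highest and ended lowest, with log2 fold changes of -0.93 in XX, -2.53 in XY and -1.28 in Tet3-/-. Platr11 (9:118404097-118406099, minus strand, 4 exons) went from 1.19, 3.01 and 2.24 TPM to 0.376, 0.441 and 0.866 in XX, from 5.27, 5.19 and 7.58 to 1.50, 2.26 and 2.44 in XY, and from 5.67, 5.75, 4.17 and 6.03 to 0.137, 0.882 and 0.876 in Tet3-/-. Its log2 fold change was largest in size in Tet3-/- (-2.00, against -0.98 in XX and -1.19 in XY).

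Platr27 (2:157595583-157597320, minus strand) fell from 3.30, 5.70 and 3.76 TPM to 1.88, 1.49 and 2.22 in XX and from 7.84, 6.82 and 11.1 to 2.70, 3.12 and 3.52 in XY. It stayed above 1 TPM in every library, and its log2 fold changes were -0.86, -1.20 and -1.20 in XX, XY and Tet3-/-. Platr28 (7:107243022-107300396, plus strand) lay between 1.33 and 3.89 TPM in mESC libraries and at or below 0.463 in EpiLC libraries, with log2 fold changes of -1.48, -1.40 and -1.45. Platr26 (2:71719417-71730966, plus strand) had 1.42, 1.47 and 1.16 TPM in XX mESC and 0.134, 0.309 and 0.379 in XX EpiLC, with 1.24, 1.09 and 1.55 TPM in XY mESC. It was listed at 0 in all 3 XY EpiLC libraries, so no fold is given there, and at no more than 0.0306 TPM in the Tet3-/- EpiLC libraries. Platr5 (1:88754890-88755736, plus strand) had log2 fold changes of -0.81, -0.65 and -0.64, and its call in Tet3-/- was lost without mutant #1 in EpiLC (-0.49, limma adjusted p 0.0621).

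**Figure D2:**
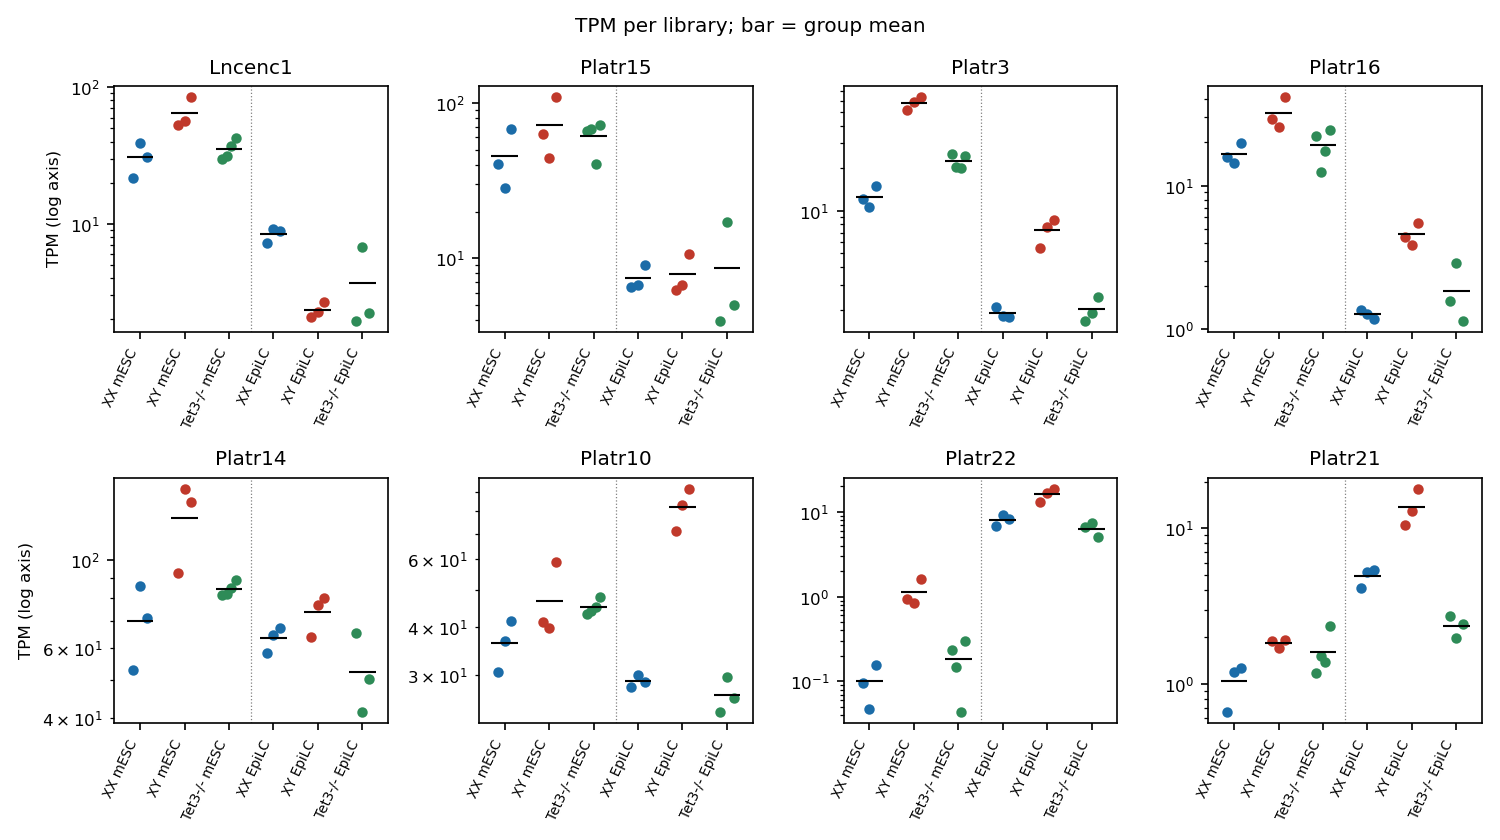
TPM of 8 genes in each library (points, log axis) by group, with the group mean as a bar and a dotted line between mESC and EpiLC. Lncenc1, Platr15, Platr3 and Platr16 are lower in EpiLC in all 3 genotypes, Platr22 is higher, and Platr10 is highest in XY EpiLC.

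Platr22 (1:136696211-136726142, plus strand, 5 exons) went against the family's name. It was almost absent from XX mESC, with 0.0945, 0.0478 and 0.158 TPM, and had 6.91, 9.29 and 8.15 TPM in XX EpiLC. In XY it went from 0.938, 0.845 and 1.62 TPM to 13.1, 16.6 and 18.8. In Tet3-/- it went from 0.233, 0.149, 0.0433 and 0.303 TPM to 6.69, 7.37 and 5.01. The lowest EpiLC library (5.01) lay above the highest mESC library (1.62). Its log2 fold changes were 3.04 ± 0.19 in XX, 3.01 ± 0.19 in XY and 2.63 ± 0.18 in Tet3-/- (SE, limma adjusted p 9.37e-10, 5.22e-10 and 1.57e-09), and on scaled values 3.06, 2.36 and 2.77.

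Platr21 (X:139240226-139357738, minus strand) rose in XX and in XY. In XX it went from 0.657, 1.19 and 1.27 TPM to 4.11, 5.21 and 5.41, and in XY from 1.89, 1.70 and 1.92 to 10.4, 13.0 and 18.0. Tet3-/- cells went from 1.18, 1.52, 1.38 and 2.36 TPM to 2.72, 1.97 and 2.41, and those libraries overlapped. The log2 fold changes were 1.54 (limma adjusted p 1.36e-05) in XX, 2.35 (limma adjusted p 4.2e-08) in XY and 0.38 (limma adjusted p 0.15) in Tet3-/-. On scaled values the Tet3-/- change was 0.51 and passed the threshold (limma adjusted p 0.0308). Compared directly, its Tet3-/- change differed from its XX change by -1.16 (limma adjusted p 0.13), which did not pass. The transcript of 712 bases held between 68.2% and 83.5% of the gene's TPM by group mean, and a transcript of 20 exons the rest.

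Platr10 (3:75647446-75655731, minus strand) was the gene called in both directions on TPM. It had 30.5, 36.8 and 41.5 TPM in XX mESC and 27.9, 29.9 and 28.7 in XX EpiLC. In XY it went from 41.2, 39.8 and 59.1 TPM to 71.3, 83.2 and 91.7, and in Tet3-/- from 43.3, 44.0, 45.1 and 47.9 to 24.0, 29.5 and 26.1. The states did not overlap in any genotype. On the log2 scale XX cells had a value of -0.31 (limma adjusted p 0.269), XY cells 0.81 (limma adjusted p 0.0024) and Tet3-/- cells -0.75 (limma adjusted p 0.00385). On scaled values the XY value was 0.09 (limma adjusted p 0.644), and XX and Tet3-/- fell by 0.57 and 0.61, so the XY rise was not called on scaled values. Its 2 transcripts, of 3 exons and 1 exon, each held between 45.6% and 54.4% of the gene's TPM by group mean.

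Platr14 (2:104559163-104571429, plus strand), the most abundant member, fell in XY by 0.76 (limma adjusted p 0.0117) and in Tet3-/- by 0.70 (limma adjusted p 0.017), and in XX its value was -0.11 (limma adjusted p 0.775). The Tet3-/- call was lost on scaled values (log2 fold change -0.56, limma adjusted p 0.0843) and without mutant #3 in EpiLC (-0.55, limma adjusted p 0.0583), and the XY call without XY mESC 2 (-0.62, limma adjusted p 0.061). Of its 6 transcripts, those of 536 and 770 bases together held most of the TPM in each group.

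Platr12 (1:63200313-63207967, plus strand, over Gpr1) differed between the lines in direction. It had 1.70, 6.02 and 1.55 TPM in XX mESC and 6.41, 6.51 and 8.07 in XX EpiLC, 11.0, 4.42 and 20.8 in XY mESC and 1.40, 3.68 and 3.30 in XY EpiLC. Tet3-/- libraries had 3.06, 4.70, 5.16 and 5.51 TPM in mESC and 1.63, 5.12 and 2.17 in EpiLC. All XX EpiLC libraries lay above the XX mESC libraries, and all XY EpiLC libraries below the XY mESC libraries. It fell in XY (-1.63, limma adjusted p 0.0062). In XX the value of 1.13 did not pass (limma adjusted p 0.0673), but it did on scaled values (0.96, limma adjusted p 0.0208) and without XX mESC 2 (1.60, limma adjusted p 0.0115). Platr17 (17:33905135-33906675, plus strand) fell in XY (-1.47, limma adjusted p 0.004), from 4.97, 2.28 and 6.30 TPM to 1.03, 0.855 and 0.789, and had values of 0.03 in XX and -0.69 in Tet3-/-. Its XX and XY changes differed by 1.50 (limma adjusted p 0.0691), which did not pass on TPM and did on scaled values (1.67, limma adjusted p 0.015).

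Platr4, Platr20 and Platr25 fell in Tet3-/- on TPM and were not called in XX or XY. The difference from the XX transition was not called for any of them (limma adjusted p 0.417, 0.722 and 0.847). Platr25 (13:62671784-62760709, minus strand, up to 7 exons) had 7.62, 19.1 and 12.1 TPM in XX mESC and 7.42, 8.12 and 8.47 in XX EpiLC, 17.7, 14.1 and 26.5 in XY mESC and 24.2, 28.4 and 34.1 in XY EpiLC. In Tet3-/- it went from 14.8, 14.5, 18.2 and 20.9 to 7.64, 14.7 and 6.82 TPM, with mutant #3 overlapping the mESC libraries (log2 fold change -0.81, limma adjusted p 0.0368, and -1.12 without mutant #3). Platr4 (3:41484024-41493192, minus strand), the gene linked to mesoderm and endoderm, went in Tet3-/- from 3.25, 2.84, 3.88 and 4.01 to 1.49, 1.64 and 1.17 TPM (-0.88, limma adjusted p 0.0226). The Platr4 and Platr25 calls were each lost without mutant #3 or #4 in mESC or mutant #1 or #4 in EpiLC, with the highest limma adjusted p at 0.0787 for Platr4 and 0.168 for Platr25, both without mutant #4 in EpiLC.

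Platr20 (11:51189833-51220418, minus strand) went in Tet3-/- from 2.62, 2.66, 2.62 and 4.06 to 0.806, 1.75 and 0.902 TPM (-0.90, limma adjusted p 0.00277). On scaled values it fell in XX and XY too (-0.54 and -0.49), while its XY value on TPM was 0.01. On scaled values Platr4 also fell in XY (-0.83) and Platr25 in XX (-0.79). Platr13 and Platr32 were called in no genotype on TPM, and on scaled values Platr13 fell in XY (-0.56, limma adjusted p 0.0101). Platr32, which lies in Alpk3, ranged from 0.0772 to 1.38 TPM with overlapping states in all 3 genotypes.

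**Figure D3:**
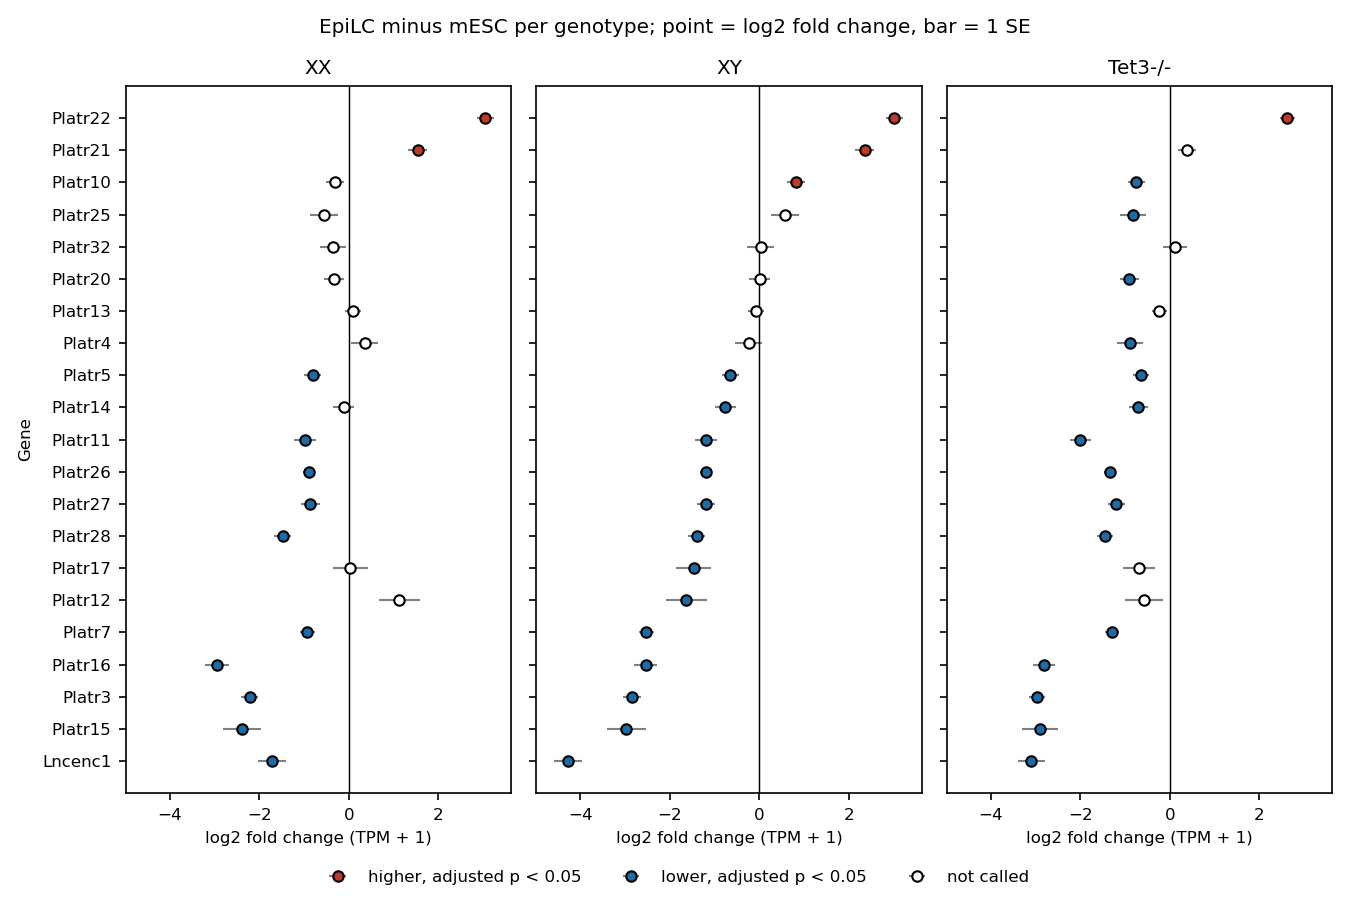
Log2 fold change from mESC to EpiLC of the 21 tested genes, on log2(TPM + 1), in XX, XY and Tet3-/- (points, with 1 SE as bars, filled where the limma adjusted p was under 0.05). Platr22 is at the right in all 3 panels, and Lncenc1 has the lowest value in XY and in Tet3-/-.

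Other genes of pluripotency from lists were set beside these counts. Of 14 naive genes 13 fell in each transition, with medians of -2.67 in XX, -4.27 in XY and -3.80 in Tet3-/-. Klf5 was not called in XX or Tet3-/-, nor Nanog in XY, where its scaled value of -1.41 passed. Of 6 core pluripotency genes such as Pou5f1 and Sox2, 3 rose and 1 fell in XX and in XY, and 2 rose and 1 fell in Tet3-/-. Of 11 tested formative genes 7 rose and 3 fell in XX, 8 and 2 in XY, and 7 and 2 in Tet3-/-. Of 20 tested lncRNAs known from other work, 9 rose and 3 fell in XX, 5 rose and 5 fell in XY, and 5 rose and 6 fell in Tet3-/-. The maternally expressed cluster of Meg3, Rian and Mirg rose in all 3 (Meg3 by 3.35, 2.86 and 1.67). Snhg3, a host of small nucleolar RNAs, fell in all 3 (-0.99, -0.93 and -1.38).

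The nearest protein-coding genes moved with some members and against others. Enc1, 181936 bases from Lncenc1, rose in XX and XY (1.22 and 2.23) while Lncenc1 fell, and the XX call was lost without XX mESC 1 (limma adjusted p 0.0565). In Tet3-/- the Enc1 value was 1.02 (limma adjusted p 0.0246) and, without mutant #3 in EpiLC, 0.40 (limma adjusted p 0.145); that call was lost without mutant #2 in mESC too. Arl4c, 52669 bases from Platr5, rose from a mean of 2.23 to 36.7 TPM in XX (log2 fold change 3.63) while Platr5 fell. Trap1a, which Platr21 overlaps on the opposite strand without shared exon bases, fell in XX, XY and Tet3-/- (-2.30, -3.69 and -3.89) while Platr21 was higher or not called. Plcb4, 6948 bases from Platr3, was called in none of the transitions on TPM with all libraries, and in Tet3-/- it was lower without mutant #3 in EpiLC (-0.76, limma adjusted p 0.0377). On scaled values it was lower in XY and Tet3-/- (-0.40 and -0.38). Zfp281, the gene nearest to Platr22, rose in XX and XY (0.82 and 0.77), and the XX call was lost with any of 5 libraries left out and the XY call with any of 4, as was the XY call on scaled values (0.07). Zfp990, the gene nearest to Platr16, fell with it in all 3 genotypes (-1.05, -0.95 and -1.66). Its XX call was lost without XX mESC 2 and its XY call without XY mESC 3 or XY EpiLC 1. Rbmxl2, the gene nearest to Platr28, fell in XY and Tet3-/- (-2.64 and -1.44), with a value of -0.49 in XX that was called on scaled values (-0.73).

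The effect of losing Tet3 was read in mESC and in EpiLC, against XX cells. In mESC 1 of the 21 genes was called by limma, Platr11, which was higher (0.494% of all genes higher, 0.107% lower). On scaled values it was again Platr11 alone (1.58% and 1.69%). In EpiLC 0 of the 21 were called (0.120% of all genes higher, 0.955% lower), and on scaled values 2 were lower, Platr21 and Lncenc1 (2.20% higher, 3.23% lower). At an unadjusted p under 0.05 there were 3 higher in mESC (Platr3, Platr7 and Platr11) and 4 lower in EpiLC (Platr12, Platr21, Platr26 and Lncenc1). At that threshold 7.72% of all genes were higher and 1.36% lower in mESC, and 1.88% higher and 7.73% lower in EpiLC. The libraries of the groups did not overlap for 4 genes in mESC, all higher in Tet3-/- (8.23% of all genes were higher and 0.982% lower), and for 6 in EpiLC, all lower (12.4% lower and 3.35% higher).

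The mESC levels of Platr11 have been given above. Every mutant library lay above every XX library. The log2 difference was 1.06 ± 0.23 (SE, limma adjusted p 0.0453), and on scaled values 0.88 (limma adjusted p 0.0147). The call was lost without XX 1 (0.82, limma adjusted p 0.335), and without XX 3 or mutants #1, #2 or #4. XX 2 had the highest level of the 3 XX libraries for several members, among them Platr17 (5.57 TPM against 0.743 and 1.31) and Platr12 (6.02 against 1.70 and 1.55).

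In EpiLC the lowest adjusted p values belonged to Platr21 and Lncenc1. For Lncenc1 the mutants had 1.94, 6.78 and 2.21 TPM and XX 7.25, 9.10 and 8.89, and the groups did not overlap. The log2 difference was -1.16 ± 0.31 (SE, limma adjusted p 0.093). On scaled values it was -1.11 (limma adjusted p 0.000638), and without mutant #3 it was -1.61 (limma adjusted p 0.00253). Both of these crossed the threshold, but 11 of 14 alternatives left Lncenc1 not called (highest limma adjusted p 0.423). Platr21 was lower by 0.81 (limma adjusted p 0.0787), and on scaled values by 0.72 (limma adjusted p 0.0471). Its result stayed not called in 12 of 14 alternatives (highest limma adjusted p 0.372). Platr12 had 6.41, 6.51 and 8.07 TPM in XX and 1.63, 5.12 and 2.17 in Tet3-/- (log2 difference -1.10, limma adjusted p 0.388, and -1.46 with an adjusted p of 0.144 without mutant #3). Of the naive genes 3 of 14 were lower in this comparison on TPM, Esrrb (-1.70), Fgf4 (-1.21) and Tcl1 (-1.88), and 11 of 14 on scaled values.

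A direct test of the transition in Tet3-/- against that in XX gave 0 calls by limma among the 21 genes, where 0.174% of all genes were lower and 0% higher. On scaled values 1 was lower, Lncenc1 (0.387% of all genes lower, 0.234% higher). At an unadjusted p under 0.05 there were 7, all lower in Tet3-/- (Platr3, Platr4, Platr11, Platr12, Platr21, Platr26 and Lncenc1), where 7.09% of all genes were lower and 0.608% higher. On TPM the median of all genes in this contrast was -0.28. For Lncenc1 the difference was -1.37 ± 0.43 (SE, limma adjusted p 0.344), on scaled values -1.04 (limma adjusted p 0.0417), and without mutant #3 -1.82 (limma adjusted p 0.015). Lncenc1 stayed not called in 19 of 21 alternatives (highest limma adjusted p 0.849).

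The XX line was then set against the XY line, with the XX libraries shared with the comparisons above. In mESC 11 of the 21 genes were lower in XX and none higher at the threshold (7.73% and 6.43% of all genes). At an unadjusted p under 0.05 there were 2 higher and 13 lower (10.3% and 16.9% of all genes). A fit of the mESC groups of XX and XY by themselves called 3 of the 21. Platr3 had a mean of 12.6 TPM in XX and 57.8 in XY (log2 difference -2.12 ± 0.20, limma adjusted p 7.59e-07). For Platr22, at a mean of 1.13 TPM in XY and below the pseudocount in XX, the difference was -0.94 (limma adjusted p 0.00222), and with a pseudocount of 0.1 it was -2.61, against -2.20 for Platr3. Platr7 was lower by 1.46 (limma adjusted p 6.9e-06), Lncenc1 by 1.07 (limma adjusted p 0.0271) and Platr14 by 0.85 (limma adjusted p 0.0186). On scaled values 9 of the 11 were called (12.6% of all genes were lower), Platr13 and Platr14 were not, and Platr5 and Platr28 were higher in XX (0.68 and 0.63, beside 18.1% of all genes). The libraries did not overlap for 11 lower genes and 1 higher (12.6% and 9.52% of all genes). Single libraries carried part of this: 6 genes were called without XX 1, 7 without XX 3 and 6 without XY 3. These counts are set beside the 11 called with all libraries, and not beside shares of all genes. Lncenc1 lost its call without each of these 3 (highest limma adjusted p 0.139, without XX 1), Platr12 without XX 1, XX 3, XY 1 or XY 3, and Platr14 without XX 1, XX 3, XY 2 or XY 3.

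In EpiLC 9 of the 21 genes were lower in XX than in XY and 3 higher (42.0% and 5.23% of all genes). The share of lower genes among the members was close to that of all genes on TPM. On scaled values 5 were lower and 3 higher, beside 15.1% and 17.9% of all genes. The libraries did not overlap for 10 lower and 6 higher genes (65.8% and 9.91% of all genes). Lower on both scales were Platr3, Platr10, Platr16, Platr21 and Platr25. Lncenc1 was higher in XX (mean 8.41 against 2.33 TPM, log2 difference 1.50 ± 0.31, limma adjusted p 0.00137, scaled 2.00), and so was Platr12 (mean 7.00 against 2.79 TPM, log2 difference 1.13, limma adjusted p 0.0486, scaled 1.65). Platr12 lost that call when any 1 of the 6 EpiLC libraries of XX and XY was left out. Also called higher on TPM was Platr26 (mean 0.274 TPM in XX and 0 in XY), which passed the filter on its mESC values alone. Its call was kept in 4 of 13 alternatives, and on scaled values Platr17 was called and Platr26 was not.

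**Figure D4:**
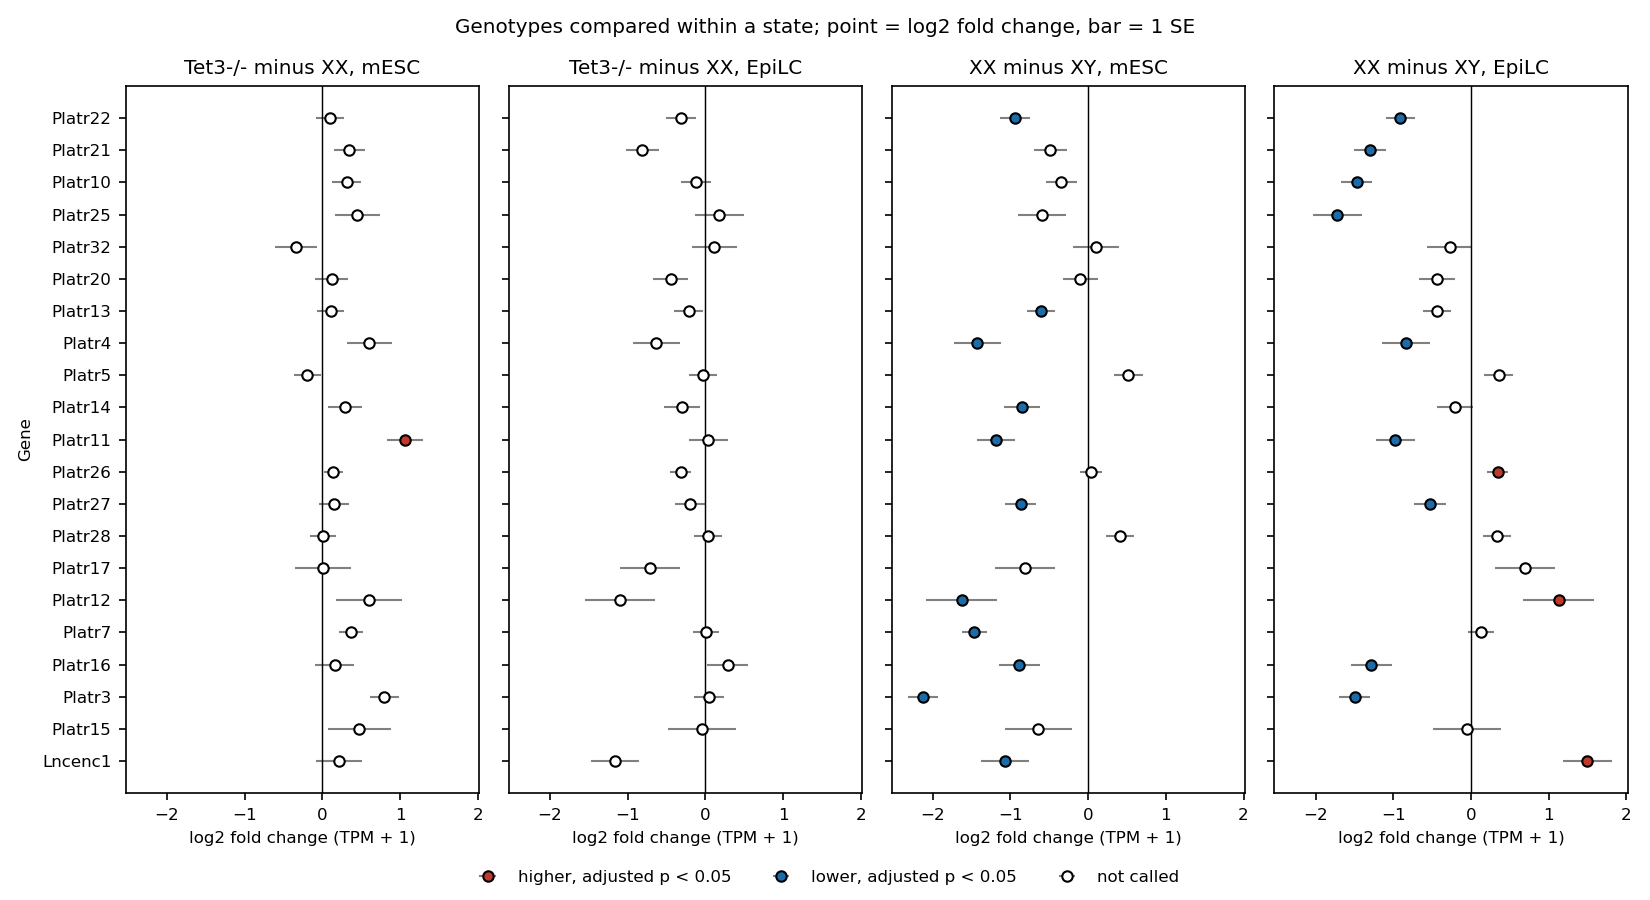
Log2 difference between genotypes within mESC or EpiLC for the 21 tested genes, on log2(TPM + 1) (points, with 1 SE as bars, filled where the limma adjusted p was under 0.05). Lncenc1 is lower in XX than in XY in mESC and higher in EpiLC.

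The change from mESC to EpiLC differed between XX and XY for 4 of the 21 genes, 3 with a higher value in XX and 1 with a lower one (3.61% and 12.4% of all genes), and the same 4 were called in the same direction on scaled values. Lncenc1 fell less in XX, by 2.56 ± 0.44 log2 units (SE, limma adjusted p 0.00057). Platr7 fell less in XX, by 1.60 ± 0.23 (limma adjusted p 0.000132). It passed the filter on mESC values alone, and its XX and XY EpiLC libraries lay at or below 0.168 TPM, under the pseudocount. The Platr7 difference therefore rests mainly on the gap between XX and XY mESC given above. For Platr12 the difference was 2.76 ± 0.64 (limma adjusted p 0.00615). For Platr10 it was -1.13 ± 0.28 (limma adjusted p 0.00993), and -0.66 on scaled values (limma adjusted p 0.0391). On scaled values 10 of the 21 differed, 8 with a higher and 2 with a lower value in XX (11.0% and 12.4% of all genes).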

How the data were processed

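RNA was measured in 19 libraries of 6 groups. The deposited values are TPM per transcript, made by the authors. The submitters' processing notes name FastQC 0.11.7, Trimmomatic 0.35, Salmon 1.1.0 and GRCm38, and the annotation release is not given in the sources used here. Per the labels' protocols the libraries were stranded and depleted of ribosomal RNA. TPM keeps no depth, so no counting interval is given, and errors are those between libraries.

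Transcript TPM was summed per gene with GENCODE M21: of 140948 transcripts 139357 matched with their version, 495 without it, and 1096 not at all (0.0454% to 0.215% of TPM). Genes with at least 1 TPM in at least 3 libraries (14972) were fitted on log2(TPM + 1) with limma 3.58.1 in R 4.3.3, in 1 fit of 6 groups with a trended eBayes, and 9 contrasts were adjusted by the Benjamini-Hochberg method. The fit was tested on simulated data. Alternatives were other pseudocounts, filters and scalings, fits of only the groups compared, a replicate block and each library left out. Every member, its nearest protein-coding gene and the listed genes could be named. The members and lists were chosen with earlier results of these data known.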

Additional observations from a re-analysis of the deposited data

Results flagged for a closer look

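In Tet3-/- mESC, 1 library lay apart from the other 3 for Platr20 and for Platr32. The gap to the nearest library was 0.974 of the group's range for Platr20 (4.06 TPM in mutant #4 against 2.62 to 2.66) and 0.881 for Platr32 (1.27 TPM in mutant #1 against 0.157 to 0.289), above Dixon's critical value for 4 samples. Chance alone gives about 1 in 20 such groups.

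The change from mESC to EpiLC differed between XX and XY, by a test of the difference itself, for Lncenc1 (2.56 log2 units), Platr12 (2.76), Platr7 (1.60) and Platr10 (-1.13). The Platr7 value rests mainly on its mESC levels, since its EpiLC levels in both lines lay under the pseudocount. Sex and cell line cannot be told apart here.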

How the results depend on the processing

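The numbers of members called in the transitions (12, 16 and 16) held within 1.5 times under the other pseudocount, filters, scalings and fits. With each library left out they were 12 to 13 in XX, 15 to 17 in XY and 13 to 16 in Tet3-/-, and after median-of-ratios scaling 16, 18 and 16. Counting only log2 changes of 1 or more in size left 7 in XX, 10 in Tet3-/-, 6 for XX against XY in mESC and 7 in EpiLC. For Tet3-/- against XX the 1 call in mESC became 0 with a pseudocount of 0.1, no filter, at least 5 TPM, TPM over nuclear protein-coding genes, eBayes without a trend, a replicate block, or a fit of just these groups. The 0 calls in EpiLC became 1 with a pseudocount of 0.1, 2 after median-of-ratios scaling and 3 with TPM over protein-coding genes. The difference of those transitions became 1 after scaling. Leaving out a library gave 0 to 1 for each of these 3. XX against XY in mESC had 3 with only the groups compared and 6 to 12 with a library left out, and in EpiLC the latter gave 8 to 11. The XX against XY test of the transitions had 10 after scaling, 7 with protein-coding TPM and 4 to 6 with a library left out. The count under 1 TPM in every library, 8, was 5 with protein-coding TPM and 8 to 9 with a library left out, an alternative chosen after seeing the data. The counts in this paragraph are set beside the main counts and describe how far the calls held. They are not set beside shares of all genes, so they show no excess of members. The causes were not tested.

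Scaling changed the sign of some values that were called on at least 1 of the scales. In the XY transition these were Platr20 (-0.49, not called on TPM) and the neighbours Plcb4 (-0.40), Ckap4 (-0.59) and Daxx (-0.51). For XX against XY in EpiLC they were Platr27 (0.0068, its TPM call lost) and Jade1 (0.69, and 0.57 with protein-coding TPM). Same-numbered libraries did not deviate together throughout (correlations between mESC and EpiLC of 0.0695, -0.0488 and 0.032 in XX, 0.186, -0.0426 and 0.243 in XY, and 0.271, 0.303 and -0.0202 for mutants #1, #3 and #4; between XX and Tet3-/- mESC 0.517, 0.443 and -0.44), so the numbers were not used as pairs, and a replicate block gave 12, 16 and 16 calls in the transitions.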
